A study of Homo sapiens with 47 samples.

Results

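22Rv1 prostate cancer cells at 2 and 1% O2 were compared with the normoxia controls that belong to these same levels. The 8 libraries were chosen by their labels, out of 47 libraries in the whole series, and no measured value entered the choice. They form 4 groups of 2 replicates: hypoxia at 2% O2, hypoxia at 1% O2, and a normoxia control group (95% air) for each. The labels give 22Rv1 as a line of primary origin, derived from a subline of the CWR22R xenograft, so all 8 libraries stand for 1 line. All were grown in RPMI-1640 medium with serum and antibiotics, and the hypoxia cells were kept in a hypoxia chamber for 24 h. The series holds the same design for further O2 levels and for PC-3, a second prostate cancer line. What was measured is the microRNA (miRNA) content, by small RNA sequencing. Whether the 2 libraries of a group came from separate cultures is not stated in the labels, so p-values here reflect only how far these samples spread, and that spread may be technical.

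A miRNA is cut from a hairpin transcript, and each hairpin can give a mature miRNA from its 5′ arm (5p) and from its 3′ arm (3p). The mature miRNA guides a silencing complex to messenger RNAs mainly through its seed, bases 2 to 8. When oxygen falls, hypoxia-inducible factor (HIF) escapes degradation and turns on its target genes, among them the host transcript of miR-210, the miRNA most widely known to rise in hypoxic cells. miR-210 lowers the level of iron-sulfur cluster assembly proteins and so dampens mitochondrial respiration.

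The sequences the results turn on are shown first, 5′ to 3′, with the seed in capitals, from RefSeq (GRCh38.p14). Both arms of the miR-210 hairpin rose, as did 1 or both arms of the hairpins below them.
miR-210-5p: aGCCCCUGcccaccgcacacug
miR-210-3p: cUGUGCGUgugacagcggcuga
miR-338-5p: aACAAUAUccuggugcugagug
miR-27a-5p: aGGGCUUAgcugcuugugagca
miR-24-2-5p: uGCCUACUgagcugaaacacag
miR-126-5p: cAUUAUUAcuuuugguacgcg
miR-181c-3p: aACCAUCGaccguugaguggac
miR-181a-3p: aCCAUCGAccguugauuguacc
The next 6 are shown because calls differed within families: miR-152-3p rose while miR-148a-3p, of the same seed, was not called, and within the miR-17 to miR-92a-1 cluster and its paralogues 2 members with the seed of miR-19 rose while 2 with the seed of miR-20 fell.
miR-152-3p: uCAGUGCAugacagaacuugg
miR-148a-3p: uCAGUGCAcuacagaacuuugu
miR-19a-3p: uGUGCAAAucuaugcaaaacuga
miR-19b-3p: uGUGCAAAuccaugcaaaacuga
miR-20a-5p: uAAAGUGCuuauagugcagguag
miR-20b-5p: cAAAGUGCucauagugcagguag
The last set fell in hypoxia, except miR-193a-3p, whose change differed between 2 and 1% O2.
miR-4521: gCUAAGGAaguccugugcucag
miR-128-1-5p: cGGGGCCGuagcacugucugaga
miR-33b-3p: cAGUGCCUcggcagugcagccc
miR-7974: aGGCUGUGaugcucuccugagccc
miR-7-5p: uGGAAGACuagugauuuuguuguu
miR-193a-5p: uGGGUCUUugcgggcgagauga
miR-193a-3p: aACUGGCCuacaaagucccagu

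The 8 libraries held 2150317 to 2985528 counts, of which the 5 leading miRNAs made up 41.2 to 46.1%. The leader, miR-191-5p, made up 16.3% of the counts on average, and the fifth, miR-16-5p, 4.44%. The luminal or epithelial markers were abundant as a sum, at 188239 to 197750.0 CPM in hypoxia and 160806 to 204612 CPM in normoxia. Of 13 tested, 1 was called higher and 1 lower, against 6.18% and 4.78% over all tested miRNAs. Most of the sum was miR-182-5p and miR-148a-3p, while miR-200b-3p of this list lay between 47.3 and 92.8 CPM. The basal or mesenchymal list summed to 2129.7 to 2999 CPM in hypoxia and 1897 to 3765 CPM in normoxia, nearly all of it miR-10b-5p, while its miR-205-5p lay between 1.14 and 23.2 CPM. CPM is a count per 1000000 counts of the library, after scaling with edgeR's TMM factors. The 2 libraries of a group lay further apart than counting noise allows (chi-square divided by its degrees of freedom, 22.8 to 31.7). On the first principal component of log2 CPM, which carried 31.9% of the variance, the 4 hypoxia libraries lay at 1.95 to 5.04 and the 4 controls at -4.15 to -2.61.

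Hypoxia at 2 and 1% O2 changed 55 of 502 tested miRNAs (10.96%), of which 31 were higher (6.18%) and 24 lower (4.78%). Each hypoxia library was set against the control of its own level and replicate number in edgeR's quasi-likelihood test, and calls were made where the p adjusted by Benjamini and Hochberg's method was under 0.05. The 4 hypoxia and 4 normoxia libraries did not overlap in 70 of the 502 miRNAs (13.9%), 35 in each direction (6.97% each). Among miRNAs with at least 20 CPM, miR-210-5p, miR-190b, miR-210-3p and miR-30b-3p rose most, and miR-4521, miR-128-1-5p, miR-33b-3p and miR-7974 fell most. The count of calls rested on single pairs: 24 miRNAs were called without the 1% pair of replicate 2 and 31 without the 2% pair of replicate 1. Of the 55, 20 kept their call in each of 8 alternative analyses and without any 1 of the 4 pairs, and miR-338-5p did so in the 7 alternatives that could include it. Since whole cultures were sequenced, fewer cells of a type and less RNA per cell cannot be told apart.

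**Figure D1:**
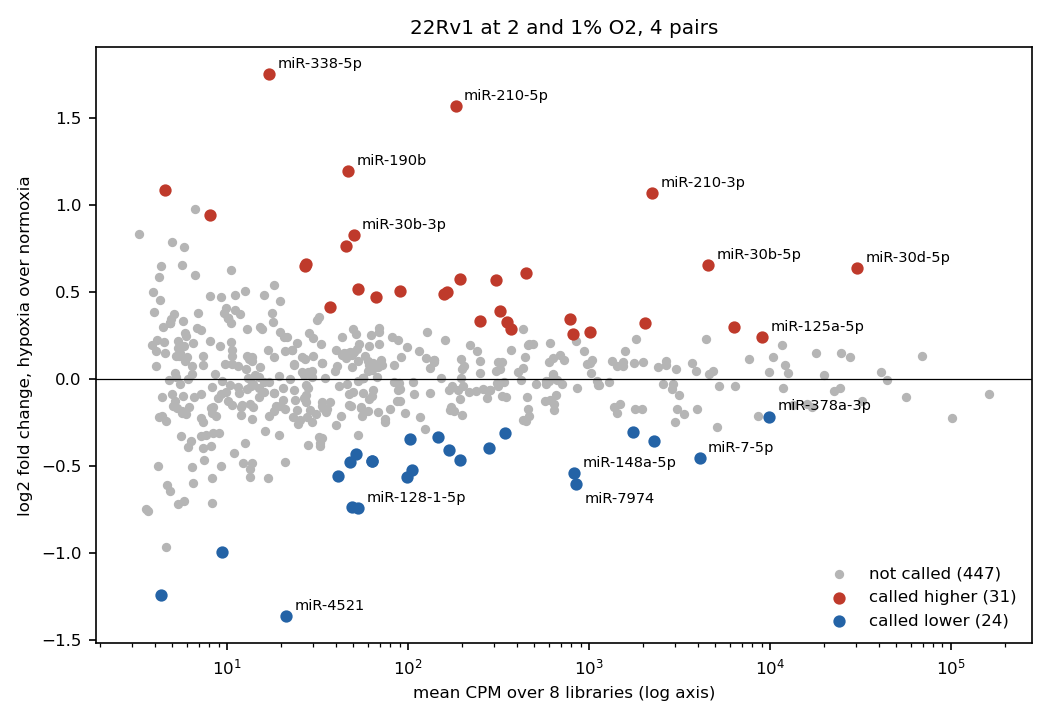
Fitted log2 fold change of hypoxia over normoxia (4 pairs, y axis) against mean CPM over the 8 libraries (x axis, log scale) for 502 miRNAs, with the 31 called higher in red, the 24 called lower in blue and the rest in grey. miR-30d-5p is the most abundant called miRNA, at a mean of 30429.7 CPM.

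miR-210 rose in every pair. miR-210-3p, its abundant arm, was at 3062 and 2881 CPM at 2% and 2884 and 3265 CPM at 1% in hypoxia, and 1360.0 and 1452 CPM at 2% and 1496 and 1452 CPM at 1% in the controls. Every hypoxia library lay above every control, with little spread among the controls (1440.1 ± 57.3 CPM, SD, n = 4). The mean in hypoxia was 3023 ± 182 CPM (SD, n = 4), a 2.10-fold rise (log2 1.07, standard error 0.073, adjusted p = 5.10e-08). miR-210-5p, the arm present in smaller amount, was at 233 and 268 CPM at 2% and 325 and 273 CPM at 1% in hypoxia, and 91.2 and 86.8 CPM at 2% and 98.7 and 91.0 CPM at 1% in the controls. The mean went from 91.9 ± 4.94 CPM to 275 ± 37.7 CPM (SD, n = 4 each), again without overlap, which is 2.97-fold (log2 1.57, standard error 0.096, adjusted p = 2.01e-08). The 5p arm thus rose by more than the 3p arm in the fit. Read as a ratio within each library, miR-210-5p counts were 7.62 to 11.3% of miR-210-3p counts in hypoxia and 5.98 to 6.71% in normoxia. The ratio was higher in hypoxia in 4 of 4 pairs, by log2 0.50 ± 0.26 (SD, n = 4), and an exact sign-flip permutation test over the pairs gave a two-sided p of 0.125, which is the smallest that 4 pairs allow.

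The miR-210 hairpin lies at chr11:568089-568198 on the minus strand (GRCh38), inside the long non-coding RNA gene MIR210HG and outside its annotated exons. Its promoter window, 250 bases before to 50 after the start of MIR210HG, is printed from RefSeq on the minus strand (chr11:568408-568707), because both arms of this host's miRNA moved together. Capitals mark matches to the letters ACGTG or GCGTG, core forms of the element that HIF recognises, searched on both strands.
MIR210HG promoter: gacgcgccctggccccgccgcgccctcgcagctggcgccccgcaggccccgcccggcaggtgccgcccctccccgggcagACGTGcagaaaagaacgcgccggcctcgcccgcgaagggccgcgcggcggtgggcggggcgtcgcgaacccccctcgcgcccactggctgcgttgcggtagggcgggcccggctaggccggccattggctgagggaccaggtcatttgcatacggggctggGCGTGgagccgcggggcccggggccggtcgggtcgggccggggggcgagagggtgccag
The window holds 1 copy of each. The former occurs in 21.4% of all 35116 promoter windows of this length in RefSeq, the latter in 36.5% and either in 48.4%. Matches on opposite strands can overlap, as the former does with itself in CACGTG. Of 39 windows belonging to host genes of called miRNAs, several per gene in some cases, 19 held either form and 10 the former. A match describes letters only.

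**Figure D2:**
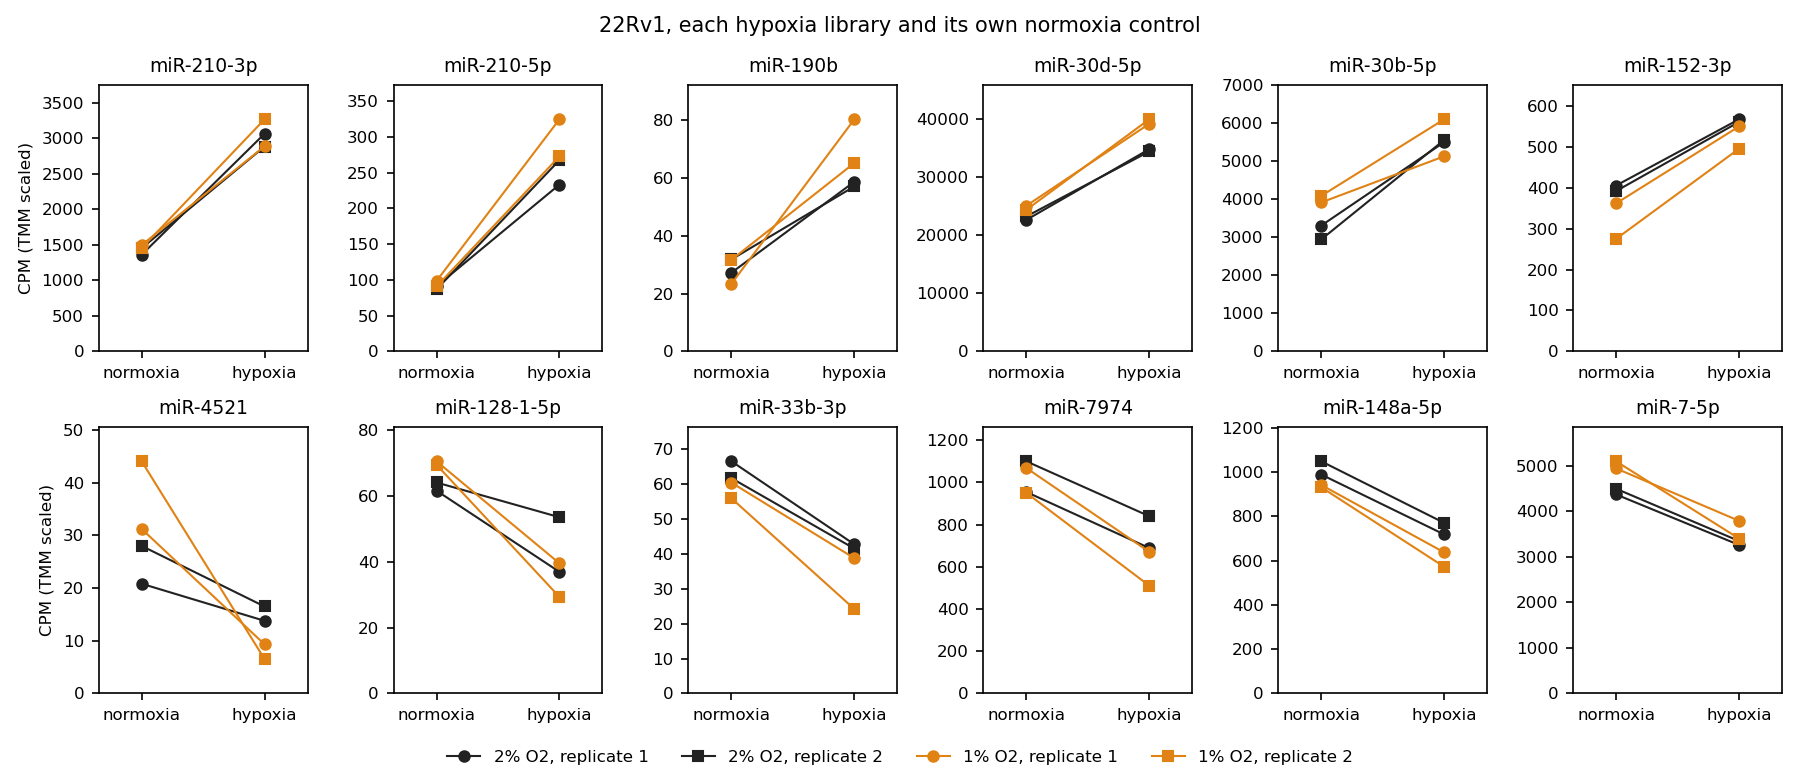
CPM (TMM scaled, y axis from 0) of 12 miRNAs in each normoxia control and its hypoxia library, joined by a line, with 2% O2 in black, 1% O2 in orange, replicate 1 as circles and replicate 2 as squares. The top panels show 6 miRNAs higher in all 4 hypoxia libraries than in their controls, and the bottom panels 6 that were lower in all 4.

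miR-190b rose 2.29-fold. It was at 58.7 and 57.1 CPM at 2% and 80.3 and 65.2 CPM at 1% in hypoxia, and 27.2 and 31.8 CPM at 2% and 23.4 and 31.7 CPM at 1% in the controls. The groups did not overlap, and the highest library was the 1% replicate 1 (log2 1.19, standard error 0.15, adjusted p = 6.46e-05). Its relative miR-190a-5p, which shares its name but comes from another hairpin, was not called (24.4 ± 4.09 CPM in normoxia and 17.5 ± 1.62 CPM in hypoxia, SD, n = 4 each, log2 -0.48, adjusted p = 0.0905) and was lower in 4 of 4 pairs. miR-338-5p had the largest fitted fold among the called miRNAs, 3.37-fold (log2 1.75, standard error 0.26, adjusted p = 2.68e-04), but a mean of only 17.1 CPM. It was at 19.6 and 20.3 CPM at 2% and 34.1 and 31.7 CPM at 1% in hypoxia, and 9.08 and 6.75 CPM at 2% and 3.51 and 11.9 CPM at 1% in the controls. All hypoxia libraries were above all controls, and those at 1% O2 were the highest. The other arm, miR-338-3p, went from 28.1 ± 7.68 CPM to 36.1 ± 10.7 CPM (SD, n = 4 each), was higher in 4 of 4 pairs and was not called (log2 0.35, adjusted p = 0.0976). The hairpin lies in AATK at chr17:81125883-81125949, outside its exons.

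Of the 11 tested miR-30 family members, which control differentiation and autophagy genes in several tissues, 4 were called higher and 0 lower, against 6.18% called higher over all miRNAs. The 4 were both arms of miR-30b and both arms of miR-30d. miR-30d-5p was the most abundant of all called miRNAs. It was at 34777 and 34382 CPM at 2% and 39136 and 39915 CPM at 1% in hypoxia, and 22618 and 23210.1 CPM at 2% and 25050.1 and 24350.3 CPM at 1% in the controls. The 4 hypoxia libraries lay far above the 4 controls, with a rise of 1.55-fold (log2 0.64, standard error 0.065, adjusted p = 8.10e-06). miR-30b-5p was at 5495 and 5552 CPM at 2% and 5124 and 6096 CPM at 1% in hypoxia, and 3304 and 2941 CPM at 2% and 3913 and 4085 CPM at 1% in the controls. Its controls at 1% were above those at 2%, and no hypoxia library overlapped with any control at a 1.57-fold rise (log2 0.65, standard error 0.082, adjusted p = 7.14e-05). The minor arms rose too, miR-30b-3p by log2 0.83 (adjusted p = 1.85e-04) and miR-30d-3p by log2 0.58 (adjusted p = 7.61e-04). The median over the 11 members was log2 0.03, close to the median of all tested miRNAs (log2 0.01). miR-30a-5p (log2 -0.17, adjusted p = 0.143), miR-30c-5p (log2 0.05, adjusted p = 0.760) and miR-30e-5p (log2 -0.04, adjusted p = 0.768) were not called. Members of this family have closely related sequences, and since the counting tool is not given, reads shared between them may have been split.

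The miR-23a, miR-27a and miR-24-2 hairpins lie side by side on chromosome 19 (chr19:13836287-13836359 for miR-24-2, chr19:13836440-13836517 for miR-27a and chr19:13836587-13836659 for miR-23a, minus strand) and are made from 1 transcript. From the list of miR-23, miR-27 and miR-24, 10 members were tested, 4 were higher and 0 lower (6.18% and 4.78% over all tested miRNAs), with a median of log2 0.25. miR-27a-5p, the minor arm of miR-27a, was at 47.5 and 45.4 CPM at 2% and 73.0 and 63.3 CPM at 1% in hypoxia, and 29.1 and 36.2 CPM at 2% and 32.0 and 36.2 CPM at 1% in the controls. It rose 1.70-fold without overlap (log2 0.77, standard error 0.14, adjusted p = 0.00169). miR-24-2-5p rose by log2 0.51 (adjusted p = 0.00274), from 75.1 ± 6.96 CPM to 107 ± 10.9 CPM (SD, n = 4 each). The abundant arms moved less: miR-23a-3p rose by log2 0.34 and miR-24-3p by log2 0.30, and miR-27a-3p missed the threshold (log2 0.23, adjusted p = 0.0676, higher in 4 of 4 pairs). The calls of miR-23a-3p and miR-24-3p were lost without the 1% pair of replicate 2 or the 2% pair of replicate 1 (adjusted p up to 0.0848 and 0.154). miR-24-3p is also made from a second gene copy on chromosome 9, and its counts cannot be assigned to either.

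miR-152 and miR-148a share the seed of their 3p arms, as printed above, and both are known to act on DNA methyltransferase 1. miR-152-3p was at 567 and 561 CPM at 2% and 549 and 495 CPM at 1% in hypoxia, and 405 and 392 CPM at 2% and 362 and 275 CPM at 1% in the controls. Its hypoxia libraries were all above the controls, and the lowest control was that of replicate 2 at 1%. The rise was 1.53-fold (log2 0.61, standard error 0.084, adjusted p = 1.85e-04). miR-152-5p rose by log2 0.66 (adjusted p = 0.00892) at a mean of 27.2 CPM, a call lost without either 1% pair (adjusted p up to 0.0753). The far more abundant miR-148a-3p was at 59018 ± 6682 CPM in normoxia and 54807 ± 2856 CPM in hypoxia (SD, n = 4 each) and was not called (log2 -0.10, adjusted p = 0.412). The minor arm miR-148a-5p fell: it was at 719 and 771 CPM at 2% and 638 and 572 CPM at 1% in hypoxia, and 989 and 1049 CPM at 2% and 942 and 932 CPM at 1% in the controls. All hypoxia libraries lay below all controls (log2 -0.54, standard error 0.078, adjusted p = 2.55e-04). Of the 6 tested arms of miR-148a, miR-148b and miR-152, 2 were higher and 1 lower (6.18% and 4.78% over all). The miR-152 hairpin lies at chr17:48037161-48037247 in COPZ2, outside its exons.

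Of 7 tested miR-181 family members, 3 were higher and 0 lower (6.18% and 4.78% over all), with a median of log2 0.24. The family is known from lymphocyte development, where it tunes receptor signalling. miR-181c-3p was at 181 and 179.5 CPM at 2% and 232 and 179 CPM at 1% in hypoxia, and 124 and 124 CPM at 2% and 162 and 134 CPM at 1% in the controls, with the 1% replicate 1 above the other hypoxia libraries (log2 0.50, standard error 0.089, adjusted p = 0.00153). miR-181a-3p, at a mean of 27.1 CPM, rose by log2 0.65 (adjusted p = 0.00477). Each hypoxia library was above its own control, although the groups overlapped, with replicate 1 above replicate 2 in every group. The call was lost with DESeq2 or without the replicate block (adjusted p up to 0.0550). miR-181d-5p rose by log2 0.39 (adjusted p = 0.00741), a call lost without the 1% pair of replicate 2 (adjusted p = 0.108). The abundant arm miR-181a-5p, which is also made from a second gene copy on chromosome 9, was not called (log2 0.09, adjusted p = 0.474).

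Both arms of miR-126, whose gene lies in EGFL7 and which is best known from endothelial cells, were higher. miR-126-5p was at 364 and 308 CPM at 2% and 425 and 366 CPM at 1% in hypoxia, and 297 and 244 CPM at 2% and 238 and 208 CPM at 1% in the controls. The lowest hypoxia library was above the highest control by a small margin (log2 0.57, standard error 0.10, adjusted p = 0.00176). miR-126-3p rose by log2 0.52 (adjusted p = 0.00593). The miR-126-5p call was lost without the 1% pair of replicate 2 (adjusted p = 0.0778). These 2 arms were the whole endothelial marker list, whose summed level was 362 to 500.2 CPM in hypoxia and 246 to 344 CPM in normoxia. Of 4 tested blood or serum entries 1 was lower (4.78% over all), miR-486-5p (log2 -0.30, adjusted p = 0.0390), and the list summed to 1508 to 1775 CPM in hypoxia and 1757 to 2337 CPM in normoxia, nearly all of it miR-486-5p. The red cell marker miR-451a lay between 2.73 and 6.16 CPM, and miR-142-3p and miR-150-5p were at 0 in at least 1 library. Of 4 tested smooth muscle or stromal entries 1 was lower, miR-143-3p (log2 -0.33, adjusted p = 0.0366), with list sums of 173 to 213 CPM in hypoxia and 176 to 251 CPM in normoxia. Its entries miR-199a-3p and miR-199b-3p had identical counts, so these sums hold the same measurement more than once. The calls of miR-486-5p and miR-143-3p were each lost in 4 of 8 alternatives and 3 of 4 omissions of a pair (adjusted p up to 0.182 for miR-486-5p and 0.803 for miR-143-3p). None of the 5 tested basal or mesenchymal entries was called. What part other cells or serum had in the result for miR-126 was not tested.

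The miR-17 to miR-92a-1 cluster is a MYC-driven transcript that promotes proliferation. Among 21 tested members of the cluster and its paralogues, 2 were higher and 3 lower, against 6.18% and 4.78% over all tested miRNAs.  miR-19a-3p and miR-19b-3p, which share a seed, both rose, by log2 0.33 (adjusted p = 0.0208) and log2 0.27 (adjusted p = 0.0366). Of 6 tested miRNAs with the seed of miR-20a-5p, 0 were higher and 2 lower, and all 6 had negative fitted values (median log2 -0.19). miR-20a-5p was at 2233 and 1961 CPM at 2% and 1825 and 1958 CPM at 1% in hypoxia, and 2317 and 3107 CPM at 2% and 2384 and 2441 CPM at 1% in the controls. The highest control was the 2% replicate 2, and the groups did not overlap (log2 -0.36, standard error 0.088, adjusted p = 0.0145). miR-20b-5p fell by 0.41 on the log2 scale (adjusted p = 0.0356). miR-19a and miR-20a are made from the same transcript, MIR17HG on chromosome 13. All 4 calls were lost without the 1% pair of replicate 2 (adjusted p up to 0.194 over the omissions). Those of miR-19a-3p, miR-19b-3p and miR-20b-5p were also lost without the 2% pair of replicate 2. The same 3 were lost with scaling by library size alone and with all 22Rv1 libraries in 1 fit. miR-19a-3p and miR-19b-3p lost theirs without the 2% pair of replicate 1 too, and miR-19b-3p with the authors' scaling factors. The signs stayed the same throughout. The remaining call, miR-25-5p (log2 -0.47, adjusted p = 0.00477), the minor arm of a hairpin in MCM7, was kept without any 1 pair.

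Of 18 tested let-7 and miR-98 entries, 0 were higher and 2 lower, against 6.18% and 4.78% over all tested miRNAs. let-7 miRNAs restrain growth genes such as RAS and are among the most abundant in these cells. The 2 were the minor arms let-7a-3p (log2 -0.31, adjusted p = 0.0258) and let-7b-3p (log2 -0.40, adjusted p = 0.0116), which share a seed. The call of let-7a-3p was lost in 3 of 4 omissions of a pair, all but the 2% pair of replicate 2, and with library size alone or all 22Rv1 libraries in 1 fit (adjusted p up to 0.112). That of let-7b-3p was lost without the 1% pair of replicate 2 (adjusted p = 0.0936). The abundant let-7a-5p was not called (log2 -0.22, adjusted p = 0.155), and the median of the 18 was log2 -0.20. With the authors' scaling factors, or with no filter on low counts, let-7a-5p passed the test as lower (adjusted p down to 0.00618).

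Among the miRNAs that fell, miR-4521 fell most of those with at least 20 CPM. It was at 13.8 and 16.5 CPM at 2% and 9.31 and 6.52 CPM at 1% in hypoxia, and 20.8 and 28.0 CPM at 2% and 31.2 and 44.0 CPM at 1% in the controls. All hypoxia libraries were below all controls, and the gap was wider at 1% O2 (log2 -1.36, standard error 0.25, adjusted p = 0.00194). miR-7974 was at 689 and 839.7 CPM at 2% and 671 and 510.5 CPM at 1% in hypoxia, and 954 and 1099.6 CPM at 2% and 1068 and 950.4 CPM at 1% in the controls. The groups did not overlap (log2 -0.60, standard error 0.089, adjusted p = 2.68e-04), and the call was lost when all 22Rv1 libraries entered 1 fit (adjusted p = 0.0786). miR-4521 and miR-7974 were the 2 lower members among 14 tested entries listed as overlapping other RNA classes, of which 0 were higher (6.18% and 4.78% over all were higher and lower), and this list summed to 2886 to 3198 CPM in hypoxia and 3148 to 3538 CPM in normoxia. miR-7-5p, a regulator of growth factor receptor signalling that is made from several gene copies, was at 3264 and 3349.7 CPM at 2% and 3794 and 3405 CPM at 1% in hypoxia, and 4373 and 4498 CPM at 2% and 4945 and 5102 CPM at 1% in the controls. It fell to 0.730 of the control level (log2 -0.45, standard error 0.067, adjusted p = 2.77e-04), again without overlap.

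miR-128-1-5p was at 37.0 and 53.6 CPM at 2% and 39.6 and 29.3 CPM at 1% in hypoxia, and 61.7 and 64.2 CPM at 2% and 70.6 and 69.6 CPM at 1% in the controls. The hypoxia libraries lay below the controls, with the 2% replicate 2 nearest to them (log2 -0.74, standard error 0.14, adjusted p = 0.00235). The abundant arm, miR-128-3p, which is also made from a second gene copy on chromosome 3, was not called (log2 0.13, adjusted p = 0.412). miR-33b-3p, from an intron of SREBF1, which encodes a regulator of lipid synthesis, was at 42.8 and 41.6 CPM at 2% and 38.8 and 24.2 CPM at 1% in hypoxia, and 66.6 and 61.8 CPM at 2% and 60.5 and 56.0 CPM at 1% in the controls. It fell in 4 of 4 pairs (log2 -0.74, standard error 0.13, adjusted p = 0.00120) while the abundant arm miR-33b-5p was not called (log2 0.11, adjusted p = 0.512). miR-193a-5p (log2 -0.56, adjusted p = 0.00274), miR-362-5p (log2 -0.52, adjusted p = 0.00299) and miR-32-3p (log2 -0.56, adjusted p = 0.0102) fell in 4 of 4 pairs as well. Among abundant miRNAs, miR-378a-3p, whose hairpin lies in PPARGC1B, a gene of mitochondrial metabolism, fell by 0.22 on the log2 scale (adjusted p = 0.0390) and lost its call in 3 of the 4 omissions of a pair (adjusted p up to 0.195). miR-1268a and miR-1268b had identical counts in all 8 libraries and fell by the same log2 0.47, so they count as 1 measurement. Their call was lost by library size alone and with DESeq2. It was also lost without the 1% pair of replicate 2 or the 2% pair of replicate 1 (adjusted p up to 0.168).

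The remaining 12 called miRNAs were 7 higher and 5 lower. Both arms of miR-330, from EML2, rose (miR-330-3p log2 0.49, adjusted p = 0.0120; miR-330-5p log2 0.29, adjusted p = 0.0366), as did miR-125a-5p (log2 0.24, adjusted p = 0.0256), miR-149-5p (log2 0.32, adjusted p = 0.0284) and miR-374a-5p (log2 0.33, adjusted p = 0.0256). Those that fell included miR-191-3p (log2 -0.34, adjusted p = 0.0441), the minor arm of the most abundant miRNA, whose other arm miR-191-5p was not called (log2 -0.09, adjusted p = 0.601), miR-940 (log2 -0.48, adjusted p = 0.0256) and miR-378a-5p (log2 -0.43, adjusted p = 0.0468). The other 4 lay below 10 CPM on average: miR-1343-3p and miR-744-3p were higher and miR-551b-5p and miR-6768-5p lower. Groups overlapped for miR-149-5p, miR-330-5p and miR-378a-5p. These calls were not firm: miR-125a-5p, miR-149-5p and miR-374a-5p each lost theirs in 3 of 8 alternatives and 3 of 4 omissions of a pair, miR-330-5p in 5 and 2, miR-378a-5p in 5 and 3, miR-191-3p in 4 and 3, miR-940 in 2 and 3, and miR-330-3p in 0 and 2. Below 10 CPM, miR-1343-3p kept its call in 5 of 7 alternatives and 2 of 4 omissions, and miR-744-3p in 6 of 7 and 2 of 4. The miR-551b-5p call held in 6 of 7 and 1 of 4, and that of miR-6768-5p in 6 of 7 and 3 of 4.

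Of 34 tested arms of miRNAs known from the literature to rise in hypoxia, 9 were higher and 0 lower (6.18% and 4.78% over all tested miRNAs), with a median of log2 0.12 against 0.01 for all tested miRNAs. The list was matched by hairpin name, so it takes in either arm of a matched name, whichever is known to rise. Arms whose names carry a further locus number were not matched. Among these were miR-24-2-5p, which was called higher, and miR-24-1-5p, which was not called. The 9 were both arms of miR-210 and of miR-30b, miR-27a-5p, miR-23a-3p, miR-24-3p, miR-181a-3p and miR-181c-3p. The other 25, among them miR-103a-3p (log2 -0.04, adjusted p = 0.756) and the abundant arms miR-27a-3p, miR-181a-5p and miR-181c-5p, were not called. Of 16 tested arms of androgen receptor-linked miRNAs, matched in the same way, 2 were higher (miR-27a-5p and miR-135a-5p) and 2 lower (miR-148a-5p and miR-32-3p), against 6.18% and 4.78% over all. The miR-135a-5p call held in only 2 of 8 alternatives and 1 of 4 omissions of a pair (adjusted p up to 0.261). The call of miR-32-3p held in 2 of 4 omissions, and was lost without the 1% pair of replicate 2 or the 2% pair of replicate 1. Of 7 tested members of the miR-200, miR-141 and miR-429 family, guardians of the epithelial state, 1 was higher, miR-200b-3p (log2 0.47, adjusted p = 0.0102), and 0 lower, against 6.18% and 4.78% over all. Its call was lost in 1 of 8 alternatives and 1 of 4 omissions. The lists of miR-15 and miR-16 (11 tested), miR-29 (7 tested) and p53-regulated miRNAs (4 tested) held no called member, and of 8 tested neuronal entries miR-132-3p was higher and miR-128-1-5p lower (6.18% and 4.78% over all). The miR-132-3p call was lost in each of the 4 omissions of a pair and in 4 of 8 alternatives (adjusted p up to 0.186). Members recur between lists.

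Both arms were tested for 127 hairpins, matched by name, though some arms, such as miR-181a-5p, are made from more than 1 gene copy. Both arms rose in 6 and both fell in 1, a single arm was called in 22, and in 0 were the arms called in opposite directions. Among the 22, the called arm was the less abundant in 15 and the more abundant in 7. Over all 127 hairpins, the less abundant arm was called higher in 12 and lower in 10, and the abundant arm higher in 11 and lower in 3, where 6.18% of all tested miRNAs were higher and 4.78% lower. The medians of the fitted changes were log2 0.04 for the abundant and -0.02 for the less abundant arms.

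At 2% O2 alone 45 miRNAs were called (8.96%), 28 higher (5.58%) and 17 lower (3.39%), and at 1% O2 alone 61 (12.2%), 31 higher (6.18%) and 30 lower (5.98%). Each level has its own controls, so the calls share no library, though the fit shares 1 estimate of spread over both levels. Called higher at both were 15, which is 53.6% of those called higher at 2% and 48.4% of those at 1%. Called lower at both were 7, which is 41.2% of those at 2% and 23.3% of those at 1%. These include both arms of miR-210, both arms of miR-30b and miR-30d, miR-190b, miR-338-5p and miR-152-3p among the higher, and miR-148a-5p, miR-7974, miR-7-5p and miR-33b-3p among the lower. The split of calls depended on the scaling: by library size alone 47 were higher and 8 lower at 2%, and 19 higher and 42 lower at 1%, and with the authors' factors 25 were higher and 33 lower at 2%, and 26 higher and 38 lower at 1%. Library size alone moved the median of all miRNAs by log2 0.10 at 2% and by -0.19 in the difference between the levels. Without either 1% pair 0 miRNAs were called at 1%, and at 2% 0 were called without the 1% pair of replicate 1, 2 without that of replicate 2 and 14 without the 2% pair of replicate 2.

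The change was compared directly between the levels, and 3 of 502 miRNAs (0.598%) differed, all with a lower value at 1% than at 2%. miR-193a-3p was at 714 and 764 CPM at 2% and 516 and 622 CPM at 1% in hypoxia, and 519 and 466 CPM at 2% and 649.6 and 792 CPM at 1% in the controls. It rose at 2% and fell at 1%, with log2 0.58 at 2% (adjusted p = 2.07e-04) and -0.34 at 1% (adjusted p = 0.0177), and the difference was log2 -0.93 (adjusted p = 1.51e-04). The controls moved as well, those at 1% lying near the hypoxia libraries at 2%. miR-550a-3p showed the same layout, at 58.4 and 70.1 CPM at 2% and 45.8 and 47.0 CPM at 1% in hypoxia, and 41.2 and 40.5 CPM at 2% and 57.7 and 56.8 CPM at 1% in the controls (difference log2 -0.95, adjusted p = 0.0342). miR-4521 fell by 2.20 on the log2 scale at 1% and had a fitted log2 of -0.68 at 2% (adjusted p = 0.0567), a difference of -1.52 (adjusted p = 0.0342). Without either 1% pair 0 differences were called, without the 2% pair of replicate 1 there were 23, and without that of replicate 2 there was 1. With all 22Rv1 libraries in 1 fit the adjusted p of the 3 was 0.659 to 0.832. For miR-210-3p the 2 levels differed by log2 -0.02 (adjusted p = 0.973).

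**Figure D3:**
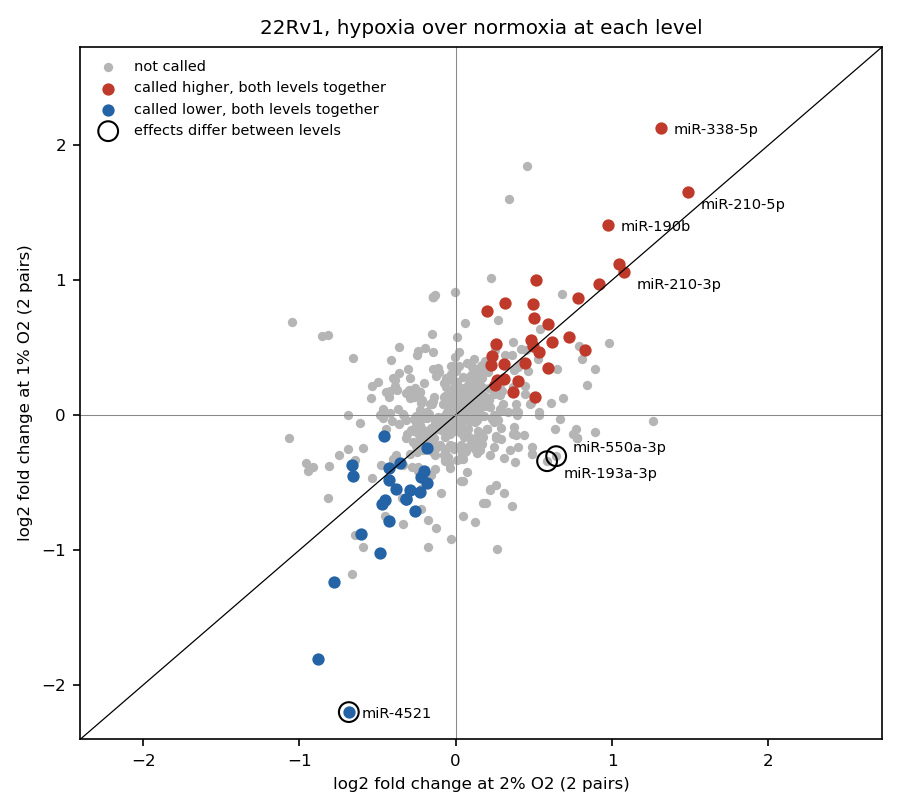
Fitted log2 fold change at 1% O2 (y axis, 2 pairs) against that at 2% O2 (x axis, 2 pairs) for 502 miRNAs, with those called over both levels in red (higher) and blue (lower), rings around the 3 whose changes differed between the levels, and the diagonal where both are equal. miR-193a-3p and miR-550a-3p lie to the right of 0 at 2% and below 0 at 1%.

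The 55 miRNAs were followed through the other O2 levels of 22Rv1, each with its own controls, in a fit of all 23 libraries of the line. At 0.2% O2 the values rest on 1 pair, since only 1 control is among the libraries used here. Of the 31 higher, 20 had a positive fitted value at 5% O2, 27 at 0.5%, 31 at 0.2% and 25 at 0%. Of the 24 lower, 19, 21, 21 and 19 had a negative one. Over all 502 miRNAs, 48.4 to 51.6% had the matching sign at these levels. At 5% O2, 1 of the 31 was called higher (0.181% of the 552 miRNAs tested in that fit were, the base of the shares that follow) and 0 of the 24 lower. Among the 31, 15 were called higher at 0.5% O2 (9.96%), 10 at 0.2% (2.36%) and 11 at 0% (5.98%). Among the 24, 15 were called lower at 0.5% (9.42%), 1 at 0.2% (0.543%) and 9 at 0% (3.26%). miR-210-3p had fitted values of log2 0.77, 1.07, 1.07, 0.87, 1.11 and 1.10 from 5 to 0% O2, and miR-210-5p of 0.38, 1.48, 1.67, 1.88, 2.20 and 1.98. miR-362-5p was negative at 5, 2 and 1% O2 (log2 -0.44, -0.67 and -0.36) and above 0 at the lower levels (0.62, 0.04 and 0.29).

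**Figure D4:**
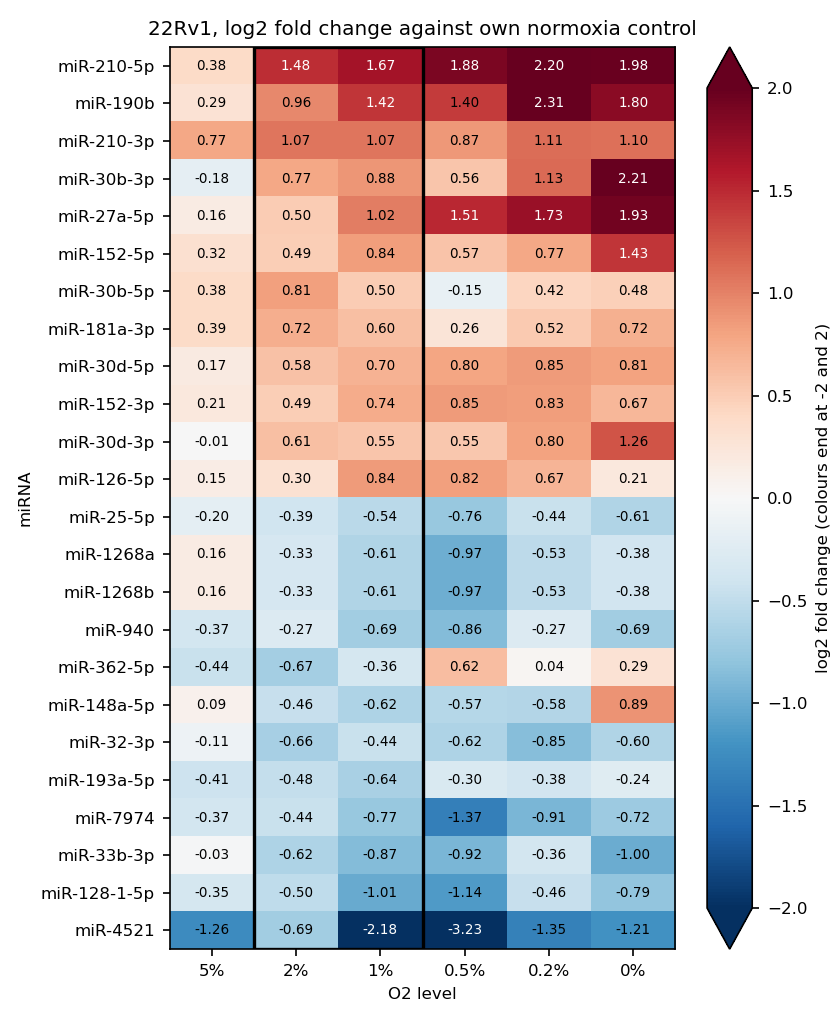
Fitted log2 fold change against the own normoxia control at each O2 level of 22Rv1 (columns) for up to 12 miRNAs per direction called at 2 and 1% O2 (rows), with the value in each cell, red for higher, blue for lower, and a frame around 2 and 1%. miR-27a-5p goes from 0.16 at 5% to 1.93 at 0%, and miR-148a-5p is 0.89 at 0%, opposite to 2 and 1%. The column of 0.2% rests on 1 pair.

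The change at 2 and 1% O2 was then tested against that at 0.5 and 0.2% O2 in the same line. The second 0.2% hypoxia library has no control of its own among the libraries used here and so adds nothing to this paired fit. None of 528 miRNAs passed (0 called by edgeR, 93 at an unadjusted p below 0.05, and 14 by DESeq2), while at 0.5 and 0.2% O2 itself 124 of 528 (23.5%) were called. miR-874-3p, miR-362-5p and miR-10b-5p came nearest the threshold, each at an adjusted p of 0.0507 in edgeR. miR-362-5p had log2 -0.53 at 2 and 1% and 0.44 at 0.5 and 0.2% (difference 0.97). The other values were 0.16 and 1.44 for miR-874-3p (difference 1.29) and -0.04 and 0.88 for miR-10b-5p (difference 0.92). miR-338-5p had log2 1.74 and 3.46 (difference 1.71, adjusted p = 0.101), and miR-210-3p 1.06 and 0.96 (difference -0.09, standard error 0.13, adjusted p = 0.738).

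PC-3 was treated at the same levels with its own controls, and the change differed between the lines for 10 of 561 tested miRNAs (1.78%), more positive in 22Rv1 for 8 (1.43%) and more negative for 2 (0.357%). In PC-3 itself 8 of 561 (1.43%) were called. miR-210-5p rose by log2 1.58 in 22Rv1 and by 0.62 in PC-3 (difference 0.96, standard error 0.18, adjusted p = 0.00456). miR-210-3p rose by 1.08 and 0.64 (difference 0.44, adjusted p = 0.0399). miR-181a-3p went opposite ways, at log2 0.66 in 22Rv1 and -0.51 in PC-3, where its level was higher (309 to 467 CPM in normoxia, against 12.2 to 26.2 CPM). This was the largest difference among those with at least 20 CPM (log2 1.17, adjusted p = 3.42e-04).

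Other differences between the lines were smaller than that of miR-181a-3p, except in 1 miRNA of low level. Levels here are scaled over both lines together. miR-200b-3p differed by log2 0.59 (adjusted p = 0.0148), at 52.5 to 83.1 CPM in hypoxic 22Rv1 and 5531 to 6274 CPM in hypoxic PC-3. miR-152-3p (0.58, adjusted p = 0.0377), miR-126-5p (0.59, adjusted p = 0.0399) and miR-582-3p (0.80, adjusted p = 0.0161) also differed. miR-7974 and miR-7-5p differed the other way, by log2 -0.60 (adjusted p = 0.0131) and -0.51 (adjusted p = 0.0155). The remaining one, miR-4671-3p (difference 1.93, adjusted p = 0.0490), lay at 5.10 CPM on average. miR-30d-5p was called in both lines, at log2 0.65 and 0.38, and its difference did not pass (log2 0.27, standard error 0.10, adjusted p = 0.247). For miR-190b PC-3 held 0.61 to 3.91 CPM in normoxia, which leaves its difference imprecise (log2 0.97, standard error 0.46, adjusted p = 0.367). Of the 31 miRNAs higher in 22Rv1, 21 had a positive value in PC-3 (46.5% of all miRNAs did) and 3 were called higher there (0.713%), and of the 24 lower, 18 had a negative one (53.5%) and 0 were called lower (0.713%). The count of differences was 1 without the PC-3 1% pair of replicate 1, 3 without the 22Rv1 1% pair of replicate 2, 4 without the 22Rv1 2% pair of replicate 1, 6 without the PC-3 1% pair of replicate 2 or the PC-3 2% pair of replicate 1, and 2 without the replicate block.

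**Figure D5:**
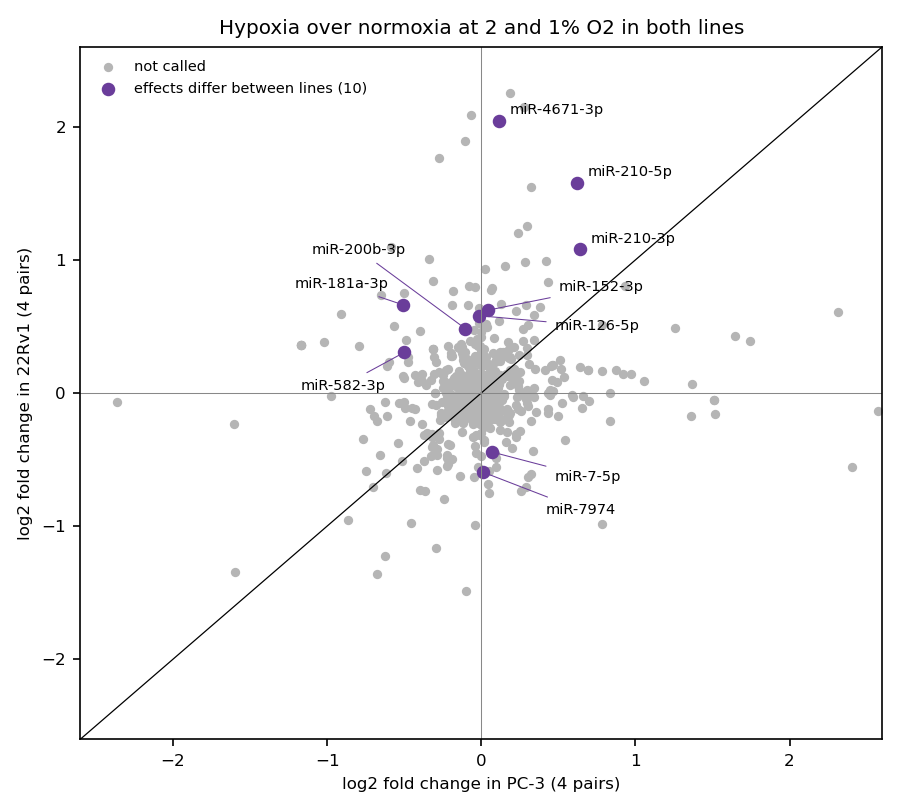
Fitted log2 fold change at 2 and 1% O2 in 22Rv1 (y axis, 4 pairs) against that in PC-3 (x axis, 4 pairs) for 561 miRNAs, with the 10 whose changes differed between the lines in purple and the diagonal where both are equal. Both arms of miR-210 lie above the diagonal, and 6 miRNAs lie outside the axes, which end at -2.6 and 2.6.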

How the data were processed

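Small RNA libraries of 22Rv1 cells at 2 and 1% O2 and their normoxia controls were analysed, 2 per group. The authors deposited a table of whole-number counts for 1006 mature miRNAs and a second table of TMM-scaled CPM, each column of which proved to be its counts multiplied by a constant. The deposited CPM served only to recover the authors' scaling factors, used as an alternative. FastQC and hg19 are named per the submitters' processing notes; aligner, counter and read filters: not given in the sources used here. Counts were tested in R 4.3.3 with edgeR 4.0.16 (TMM, robust quasi-likelihood, two-sided). A miRNA needed 5 CPM or more in 2 or more libraries to be tested, and calls were made at an adjusted p below 0.05 (Benjamini-Hochberg over all tested miRNAs).

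The model had 1 term per pair, a pair being the hypoxia and normoxia library of the same level and replicate number, plus the hypoxia effect, or 1 effect per level or line where these were compared. The labels give only a shared number. Deviations of same-numbered libraries correlated at 0.258 (2% O2) and 0.219 (1% O2). Other scalings, filters, DESeq2 1.42.0, no replicate block, a fit of all 22Rv1 libraries and leaving out each pair were run as alternatives. The pipeline was tested on simulated data. Totals of 2150317 to 2985528 counts leave miRNAs of a few CPM with few reads.

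The miRNAs and lists were chosen with earlier results of these data known. Named were up to 12 called miRNAs per direction by fold (mean of 20 CPM or more, moving the same way in all 4 pairs), the other arm of their hairpins, both arms of miR-210, the 4 members of a list with the smallest p, up to 5 per direction for each difference, and the 5 most abundant. Further names, such as miR-338-5p, miR-378a-3p, miR-149-5p, miR-330-5p, miR-4671-3p, the seed relatives and called miRNAs below 20 CPM, were chosen after their values were seen. The SREBF-hosted miR-33 list had 1 lower and 0 higher of 4 tested members and the miR-190 list 1 higher and 0 lower of 2. Over all tested miRNAs 6.18% were higher and 4.78% lower. Sequences and hairpin positions are RefSeq's on GRCh38.p14, matched by name for 434 of 502 tested miRNAs, and host genes are from GENCODE 29; no hg19 coordinate was used. Identical counts within the 8 libraries marked 7 sets of entries.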

Additional observations from a re-analysis of the deposited data

Results flagged for a closer look

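The highest or lowest library of 1 group stood apart from the 3 others in 12 of 206 groups examined (4 libraries each), where chance gives about 1 in 20. In normoxia the library apart was replicate 2 at 2% O2 for miR-152-5p (25.1 CPM, others 19.3 to 20.2) and miR-20a-5p (3107 CPM, others 2317 to 2441), replicate 1 at 2% for miR-32-3p (56.8 CPM, others 45.8 to 46.5), and replicate 2 at 1% for miR-149-5p (2379 CPM, others 1596 to 1655), for miR-6768-5p (15.6 CPM, others 10.9 to 11.7) and for the identical entries miR-1268a and miR-1268b (87.7 CPM, others 69.0 to 69.6). In hypoxia it was replicate 1 at 1% for miR-181c-3p (232 CPM, others 179 to 181), miR-486-5p (1749 CPM, others 1484 to 1517) and miR-6768-5p (4.27 CPM, others 6.66 to 6.99), and replicate 2 at 1% for miR-1343-3p (7.92 CPM, others 5.43 to 5.80) and miR-29a-5p (22.8 CPM, others 17.1 to 17.8).

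The tested difference between 1 and 2% O2 passed for miR-4521 (log2 -1.52), miR-550a-3p (-0.95) and miR-193a-3p (-0.93). The tested difference between 22Rv1 and PC-3 passed for 10 miRNAs, among them miR-152-3p and miR-210-3p. The largest with at least 20 CPM, up to 5 per direction, were miR-181a-3p (log2 1.17), miR-210-5p (0.96), miR-582-3p (0.80), miR-126-5p (0.59), miR-200b-3p (0.59), miR-7974 (-0.60) and miR-7-5p (-0.51). Of these 7 largest, miR-181a-3p kept its call in each of 15 alternatives and omissions, and miR-210-5p in 14 of 15.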

How the results depend on the processing

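The 55 calls over both levels became 38 to 66 under other scalings, filters, DESeq2 or a fit of all 22Rv1 libraries, and 24 to 61 without 1 pair. The replicate block mattered: without it 43 were called over both levels, 18 at 2% O2, 39 at 1%, 1 for the difference between the levels and 2 for the difference from PC-3. DESeq2 called 19 at 2%, 30 at 1%, 1 for the level difference and 14 for 0.5 and 0.2% minus 2 and 1% O2. With all 22Rv1 libraries in 1 fit the counts were 7 at 2%, 24 at 1% and 0 for the level difference. The level difference also gave 1 call with DESeq2 size factors, 25 with library size alone, 9 with the authors' factors, 6 with no filter and 22 at a mean of at least 20 CPM. The 0.5 and 0.2% comparison gave 3 with the authors' factors and 21 with no filter, and the PC-3 comparison 4 and 6. Without 1 pair the counts ran from 0 to 51 at 2%, 0 to 69 at 1%, 0 to 23 for the level difference, 0 to 15 for the 0.5 and 0.2% comparison (15 without the 0.2% pair of replicate 1, 11 and 2 without the 1% pairs of replicates 1 and 2) and 1 to 11 for PC-3. Leaving out a pair removes 2 libraries, and a level left with 1 pair is assumed to vary like the others; for the other changes the cause was not tested. None of the 55 called miRNAs changed the sign of its fitted value in the alternatives and omissions run. The alternatives reuse the libraries on which the 55 were called, so their steady signs are no separate test of the calls. Of the 48 other named miRNAs, which were not called, 9 changed sign, among them miR-193a-3p (log2 -0.07 to 0.27) and miR-191-5p (-0.20 to 0.03). With 2 pairs per level, miRNAs under about 20 CPM rest on few reads.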
